A study of Mus musculus with 9 samples.

Results

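The genes of the vacuolar ATPase (V-ATPase), the cathepsins and a group of lysosomal membrane proteins and regulators were followed in RNA-Seq counts of MyC-CaP cells, a mouse prostate cancer line. They were chosen by gene symbol alone: symbols beginning with Atp6v0, Atp6v1, Atp6ap1 or Atp6ap2, the cathepsins named Cts and 1 letter, and Lamp1, Lamp2, Mcoln1 to Mcoln3, Npc1, Npc2, Tfeb, Tfe3 and Scarb2. This gave 46 of the 15384 protein-coding genes of the count table, of which 12 have symbols of V1 subunits, 8 of V0 subunits, 2 of V-ATPase accessory proteins, 14 of cathepsins, 7 of membrane or cholesterol transport proteins and 2 of transcription factors. The remaining gene, Atp6v1fnb, lies beside Atp6v1f and was matched by its symbol only. Mcoln3 was not analysed here.

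The V-ATPase pumps protons into lysosomes and other acidic compartments. Its cytosolic V1 sector splits ATP, and its membrane-bound V0 sector passes the protons. Cathepsins are proteases that are matured and work at the acidic pH so formed, and cathepsins such as B and L also cut the linkers of several antibody-drug conjugates. LAMP1 and LAMP2 are the most abundant glycoproteins of the lysosomal membrane, and NPC2 and NPC1 hand cholesterol from the lumen to the membrane. TFEB and TFE3 are transcription factors that bind an E-box within the so-called CLEAR motif of many lysosomal gene promoters. They are held in the cytoplasm when mTORC1 phosphorylates them, which mRNA levels do not show.

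ASPN (asporin) is a protein that stromal fibroblasts secrete, and the study asked which transcripts change in prostate cancer cells exposed to it. All cells were first kept for 6 to 12 hours in medium without serum and calcium, and recombinant mouse ASPN was then added at 100 ng/mL. RNA was taken at time 0, at 12 hours and at 24 hours, from 3 replicates each, which the labels call biological. By the paper's methods the cells were plated in triplicate wells, and whether the replicates were independent cultures is not stated. By the labels even the time 0 libraries are ASPN-treated, and none of the 9 libraries is of cells that were kept equally long without it. The effects of ASPN and of the hours in culture therefore cannot be told apart in any comparison below. Each library comes from a whole well of cells, so a change in the mix of cells cannot be told apart from a change of RNA within them.

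The libraries held 41881191 to 52993821 counts on the genes of the table. The luminal prostate genes Foxa1, Hoxb13 and Krt8 were expressed (at least 24.8 CPM in every library, CPM being counts scaled to a common library size with TMM factors), whereas Epcam and Cdh1 had at most 10 counts and Krt18 at most 22, so the epithelial-like label was met by only some of its markers. These 6 luminal markers summed to 327 to 338 CPM (time 0), 298 to 312 CPM (12 hours) and 215 to 236 CPM (24 hours). Of 13 leukocyte markers, 6 were in the table and only Cd14 had more than 5 counts in any library, at 8.41 to 23.1 CPM. They summed to 8.46 to 9.07 CPM (time 0), 17.8 to 21.6 CPM (12 hours) and 17.2 to 23.2 CPM (24 hours). Of 8 fibroblast markers, 5 were in the table, summing to 9.14 to 14.1 CPM, nearly all from Pdgfra, and Col1a1 had at most 8 counts and Aspn at most 9. Endothelial markers (3 of 5 in the table) summed to at most 0.183 CPM and osteoclast markers (2 of 6, Acp5 and Ctsk) to at most 0.368 CPM. The part of other cells in the results was not tested beyond these levels.

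Promoter sequences are shown first for those genes in which the CLEAR motif stands next to a measured change. Of the 46 genes, 36 had a promoter window in RefSeq (250 bases before to 50 after an annotated start, GRCm38.p6), and these were searched for the E-box CACGTG and for the CLEAR core TCACGTGA, which contains it. Both motifs read the same on either strand. The 4 stretches below run from 150 bases before to 15 bases after an annotated start of each gene. Capitals mark the matches, of 8 letters where the whole core is present and of 6 where only the E-box is. Ctsa (chr2:164833623-164833787, plus strand) has 2 cores, and Mcoln1 (chr8:3500369-3500533, plus strand) has 1 core and 1 further E-box. A further Ctsa window, at chr2:164832622-164832921 around another annotated start, held no match. Ctsd (chr7:142387813-142387977, minus strand) and Atp6v1a (chr16:44139245-44139409, minus strand) have 1 core each. With library totals in place of TMM factors, only Atp6v1a of the 4 still passed (log2 0.32). Ctsa (-0.021), Ctsd (0.0088) and Mcoln1 (0.20) did not. Atp6v0d1 also held a core and passed with TMM factors, but is not among the 4 shown.
Ctsa: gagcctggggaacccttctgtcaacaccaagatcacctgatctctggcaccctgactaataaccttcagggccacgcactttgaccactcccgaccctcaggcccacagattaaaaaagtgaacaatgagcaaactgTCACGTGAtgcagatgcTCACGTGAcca
Mcoln1: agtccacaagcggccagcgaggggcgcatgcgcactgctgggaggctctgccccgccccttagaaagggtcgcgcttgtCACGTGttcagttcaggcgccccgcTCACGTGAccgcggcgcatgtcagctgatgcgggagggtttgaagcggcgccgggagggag
Ctsd: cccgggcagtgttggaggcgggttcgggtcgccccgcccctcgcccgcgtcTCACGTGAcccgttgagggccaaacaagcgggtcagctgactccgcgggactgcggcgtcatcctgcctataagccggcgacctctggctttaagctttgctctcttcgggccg
Atp6v1a: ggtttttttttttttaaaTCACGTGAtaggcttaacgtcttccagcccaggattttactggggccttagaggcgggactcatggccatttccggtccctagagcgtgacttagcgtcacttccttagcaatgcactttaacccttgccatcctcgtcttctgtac

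An E-box was found in 11 of the 36 genes (30.6%), against 10.7% of the 12003 genes of the table that have a window and 7.15% of all 32851 windows. The genes were Atp6v0b, Atp6v0d1, Atp6v0e, Atp6v1a, Ctsa, Ctsd, Ctsf, Ctsl, Lamp1, Mcoln1 and Mcoln2. The whole core was found in 6 of the 36 (16.7%), against 1.87% of the genes of the table and 0.974% of all windows. Lamp1 held 4 E-boxes, beginning at positions -61, -45, -28 and -15 from the start, and none of them was a core. Ctsl, the cathepsin with the largest change below, held 1 E-box, at position -236. Tfeb and Tfe3, whose products bind such sites, had none in their windows. These are matches of letters, not binding sites.

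**Figure D1:**
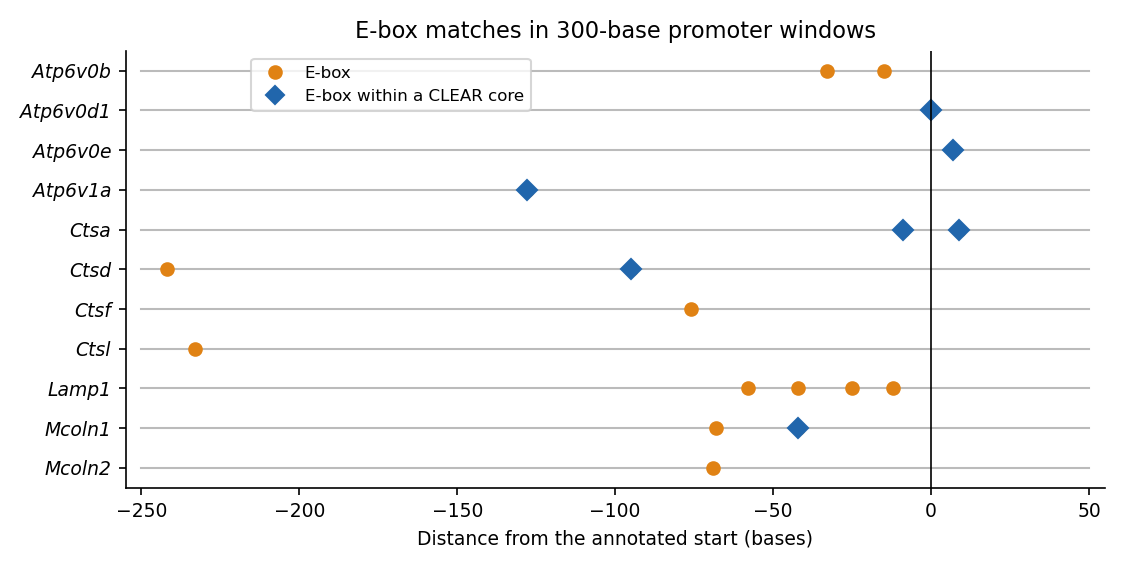
Positions of motif matches in the promoter windows of the 11 genes that held any, as distance in bases from an annotated start. Circles mark an E-box and diamonds an E-box within a CLEAR core. In Lamp1 the 4 matches lie close together before the start, whereas the match in Ctsl lies near the far end of its window.

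Levels of different genes were compared in TPM, counts divided by exon length and scaled to 1 sum in every library. At time 0 the highest was Ctsd, the aspartic protease cathepsin D, at 753 ± 26.1 TPM (SD, n = 3), followed by Lamp1 at 543 ± 15.6 and Ctsz, a carboxypeptidase, at 500 ± 7.31. Npc2 stood at 269 ± 8.88, Ctsl at 176 ± 2.71 and Ctsb at 150 ± 1.42. Next to Npc2 in this order was the V1 subunit gene Atp6v1f (265 ± 7.87), and these differed by less than their SD. The transcription factors were at the lower end, with 7.33 ± 0.188 TPM for Tfe3 and 1.98 ± 0.180 for Tfeb, and Tfe3 lay above Tfeb in each of the 9 libraries.

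Genes with low counts were removed, the libraries were scaled with TMM factors and edgeR's quasi-likelihood test was run over all remaining genes of the table. A gene was called at a Benjamini-Hochberg adjusted p of at most 0.05 and a change of at least 1.5-fold, and genes past the adjusted p alone were counted as well. In each comparison 34 of the 46 genes could be tested. The other 12 (Atp6v1b1, Atp6v1c2, Atp6v1e2, Atp6v1fnb, Ctse, Ctsf, Ctsj, Ctsk, Ctsq, Ctss, Ctsw and Mcoln2) had 0 to 13 counts per library, too few for a comparison at this depth. They include the tissue-restricted V1 paralogs and cathepsins known from immune cells (Ctss, Ctsw), osteoclasts (Ctsk) and placenta (Ctsj, Ctsq). Counts and medians over the 34 are thus descriptions of the tested genes only.

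After 12 hours, none of the 34 genes was called in edgeR's quasi-likelihood test against time 0, and none by DESeq2 or limma-voom. Of all genes tested, 1.60% were called. At an unadjusted p under 0.05 there were 5 of the 34, against 2437 of the 11410 genes tested. Ctsl, Npc1 and Tfe3 passed the adjusted p alone, all higher, against 10.3% of all genes tested (6.85% higher, 3.47% lower). The median log2 change of the 34 genes was 0.0087, against -0.0049 for all genes. No V-ATPase subunit or accessory protein gene passed the adjusted p at this time (19 tested).

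After 24 hours, 3 of the 34 genes were called against time 0, all higher: Npc2, Ctsl and Lamp2. With library totals in place of TMM factors none of them reached 1.5-fold, and the only gene called was Scarb2, lower. The 3 genes are 8.82% of the genes, against 28.8% of all genes tested (12.0% called higher and 16.8% lower). In the adjusted p alone, 20 of the 34 were higher (58.8%) and 3 lower (8.82%), against 34.4% higher and 36.5% lower of all genes tested. The total past the adjusted p was 67.6%, close to the 70.9% of all genes tested. Their median log2 change was 0.23, against -0.016 for all genes. The counts depend on the scaling. With library totals the median of all genes was -0.24 and that of the 34 was 0.012, and 11 were higher and 8 lower (adjusted p), with Atp6v0d1, Atp6v1c1 and Ctsa changing sign among those past the adjusted p. With length and GC offsets the medians were -0.0035 and 0.22.

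Between 12 and 24 hours, Npc2, Lamp2 and Lamp1 were called, all higher (8.82% of the 34, against 25.7% of all genes tested, 10.4% higher and 15.3% lower). The adjusted p alone was passed by 22 genes in the higher direction and by Scarb2 in the lower one, against 71.3% of all genes tested (35.7% higher, 35.6% lower). With library totals 0 were called, and 10 were higher and 7 lower (adjusted p). With offsets for transcript length and GC content, Npc2, Ctsl (0.60) and Tfe3 (0.65) were called and Lamp1 and Lamp2 were not, and 19 were higher and 6 lower (adjusted p). This comparison shares its 24 hour libraries with the one before and its 12 hour libraries with the first.

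**Figure D2:**
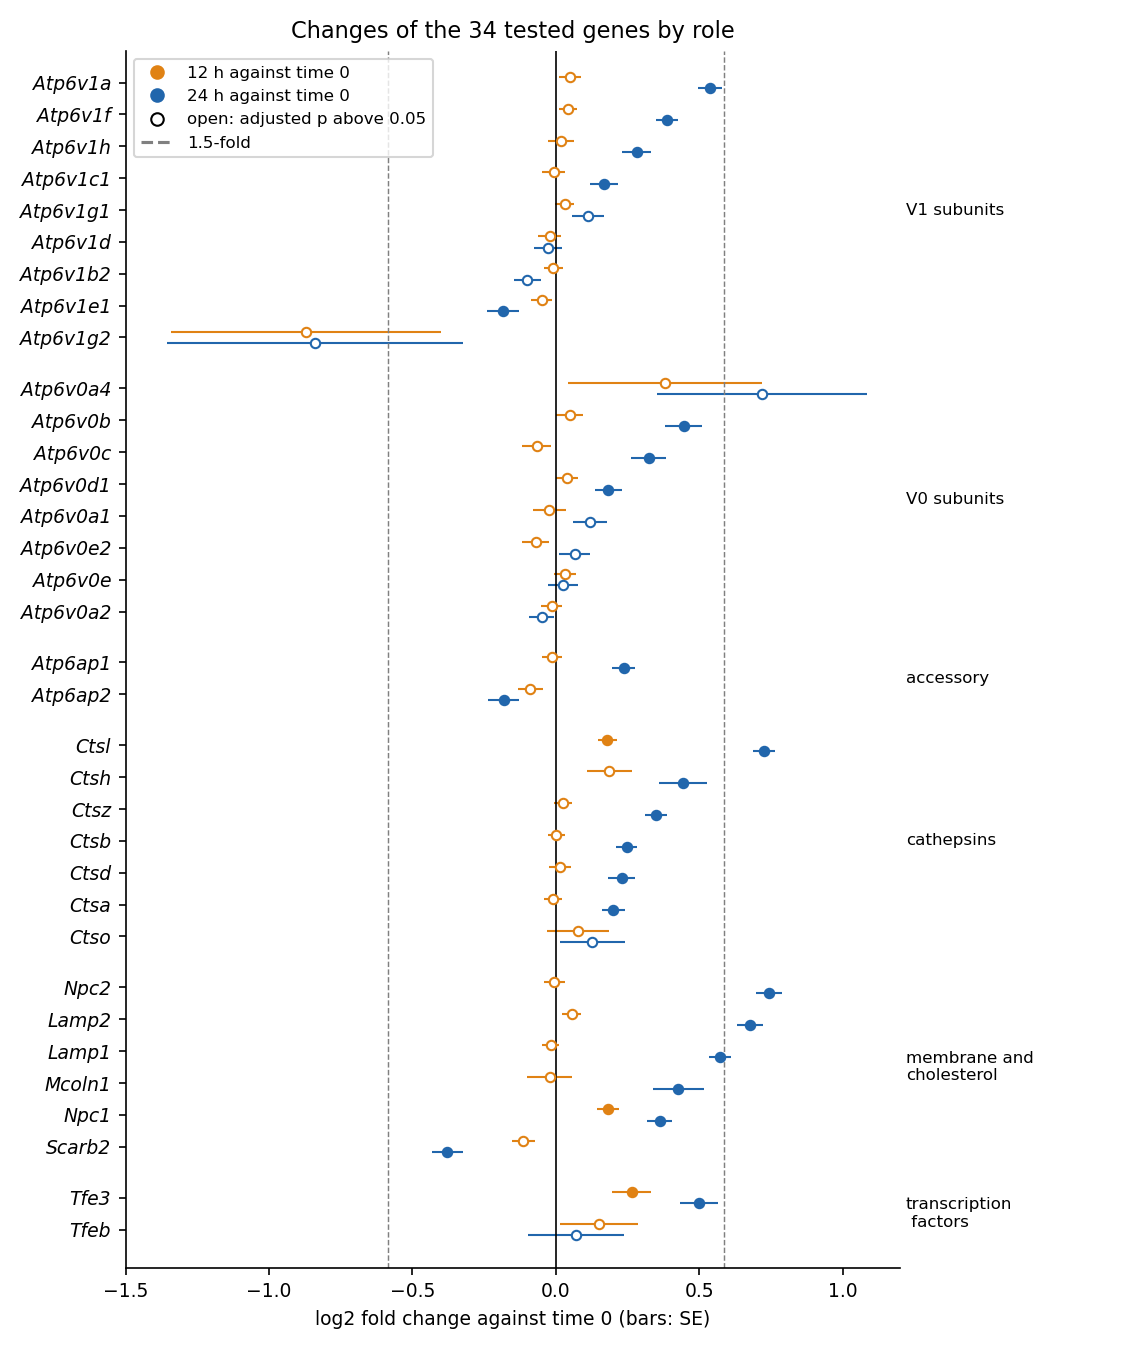
log2 fold change against time 0 (x axis) of the 34 tested genes, ordered by role, at 12 hours (orange) and 24 hours (blue). Bars are SE, filled points passed an adjusted p of 0.05 and dashed lines mark 1.5-fold. At 24 hours Npc2, Ctsl and Lamp2 lie past the upper line with filled points, and Scarb2 is the lowest filled point. The genes with wide bars, Atp6v1g2 and Atp6v0a4, had at most 34 counts per library.

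In the V1 sector, 9 of 12 genes were tested. At 24 hours Atp6v1a, Atp6v1f, Atp6v1h and Atp6v1c1 were higher and Atp6v1e1 was lower (adjusted p), with a median log2 change of 0.11 over the 9 and no gene called. Over all genes tested, 34.4% were higher and 36.5% lower. The median turned negative with library totals (-0.11) and with length and GC offsets (-0.095), each with 2 genes higher and 3 lower. Atp6v1a, which encodes the ATP-splitting A subunit, went from 93.0 ± 3.47 CPM (SD, n = 3) at time 0 to 96.1 ± 2.77 at 12 hours and 135 ± 2.12 at 24 hours. Its log2 change at 24 hours was 0.54 (SE 0.042, adjusted p = 1.00e-07, edgeR's quasi-likelihood test), it was higher in all 3 libraries, and it was 0.32 with library totals. Atp6v1b2, whose product alternates with A in the V1 ring, was at 92.0 ± 1.95, 91.2 ± 2.21 and 85.8 ± 4.66 CPM, with a log2 change of -0.099 at 24 hours that did not pass (adjusted p = 0.077 in edgeR). With library totals it was -0.32 and passed.

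The ratio of Atp6v1a to Atp6v1b2, in TPM, was 0.894, 0.861 and 0.909 in the time 0 libraries and 0.978, 0.888 and 0.909 at 12 hours. At 24 hours it was 1.48, 1.35 and 1.32. The 24 hour libraries all lay above the others, whereas those of time 0 and 12 hours overlapped. A ratio within a library does not depend on the scaling between libraries. The A and B subunits stand in equal number in the assembled pump. Atp6v1f, of the central stalk, rose from 82.2 ± 1.04 to 108 ± 1.75 CPM at 24 hours (log2 0.39, SE 0.040), and Atp6v1h, a regulatory subunit, from 39.6 ± 1.70 to 48.2 ± 1.03 (log2 0.28, SE 0.051). With length and GC offsets these changes were 0.091 and 0.066 and did not pass (adjusted p = 0.052 and 0.31 in edgeR), and with library totals they were 0.17, which passed, and 0.060, which did not. Atp6v1e1, of the peripheral stalks, fell by 0.18 on the log2 scale, and did not pass without replicate 1 of time 0 (log2 -0.14, adjusted p = 0.069 in edgeR). Atp6v1d and Atp6v1g1 did not pass (log2 -0.027 and 0.11). With length and GC offsets both were lower past the adjusted p (-0.14 and -0.13), and with library totals Atp6v1d was (-0.25). Atp6v1g2, a paralog known from neurons, had 6 to 30 counts per library and a log2 change of -0.84 with an SE of 0.52.

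In the V0 sector, all 8 genes were tested. Atp6v0b, Atp6v0c and Atp6v0d1 were higher at 24 hours (adjusted p), none was lower and the median log2 change was 0.15. These 3 of 8 are near the share of all tested genes that were higher (34.4%, with 36.5% lower). With library totals 1 was higher and 3 lower, and the median was -0.071. Atp6v0b and Atp6v0c encode proteolipids of the rotating ring that carries the protons. Atp6v0b went from 43.9 ± 2.98 CPM at time 0 to 45.3 ± 0.672 and 59.8 ± 4.68 (log2 0.45, SE 0.065, at 24 hours), or 0.22 with either library totals or length and GC offsets. Atp6v0c went from 26.3 ± 0.778 to 25.1 ± 0.774 and 32.9 ± 2.16 (log2 0.32, SE 0.061), and did not pass with library totals (log2 0.10, adjusted p = 0.15 in edgeR). Atp6v0d1, the stalk of the ring, had a log2 change of 0.18, and did not pass with length and GC offsets (0.053, adjusted p = 0.34 in edgeR) or library totals (-0.039, adjusted p = 0.46). Atp6v0e and Atp6v0e2 did not pass (0.024 and 0.066), though both were lower with library totals (-0.20 and -0.16).

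Subunit a of V0, through which protons enter and leave the membrane, has 4 paralogs that place the pump in different compartments. The rule takes Atp6v0a1, Atp6v0a2 and Atp6v0a4, and Tcirg1, which encodes a3 and is known for lysosomes and the osteoclast border, was added to complete the position. Atp6v0a2, known for the Golgi and endosomes, held 46.1% ± 2.02 of the position's TPM at time 0 (SD, n = 3), 44.5% ± 0.518 at 12 hours and 38.4% ± 0.695 at 24 hours. Tcirg1 held 27.2% ± 3.01, 29.6% ± 1.99 and 36.3% ± 1.73. The 24 hour libraries did not overlap those of time 0 or 12 hours in either share. Atp6v0a1 held 26.4% ± 1.30, 25.4% ± 1.55 and 24.8% ± 1.17, with overlap between all times, and Atp6v0a4, known from kidney, at most 0.712% in any library.

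These shares depend on the gene length used: Atp6v0a2 was at 41.0% and 33.8% (time 0 and 24 hours) with the longest transcript, and at 50.8% and 43.7% as a share of counts. The fall was found with each. In the test of single genes, Tcirg1 was called higher at 24 hours (log2 0.63, SE 0.092, adjusted p = 3.79e-05 in edgeR), while Atp6v0a2 (-0.049, SE 0.044) and Atp6v0a1 (0.12, SE 0.059) did not pass. The direction of Atp6v0a2 depends on the correction: it was lower with library totals (log2 -0.27, adjusted p = 0.000171 in edgeR) and higher with length and GC offsets (0.24, adjusted p = 0.000158). Tcirg1 was higher under both (0.40 and 0.82) but short of 1.5-fold with library totals, and Atp6v0a1 passed with the offsets (0.15). At the other positions with paralogs, 1 gene held nearly all of the TPM: Atp6v1b2, Atp6v1c1, Atp6v1e1 and Atp6v1g1 each had at least 98.9% in every library. Subunit e was shared, with 56.4% ± 1.75 from Atp6v0e at time 0 and 55.7% ± 1.60 at 24 hours.

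**Figure D3:**
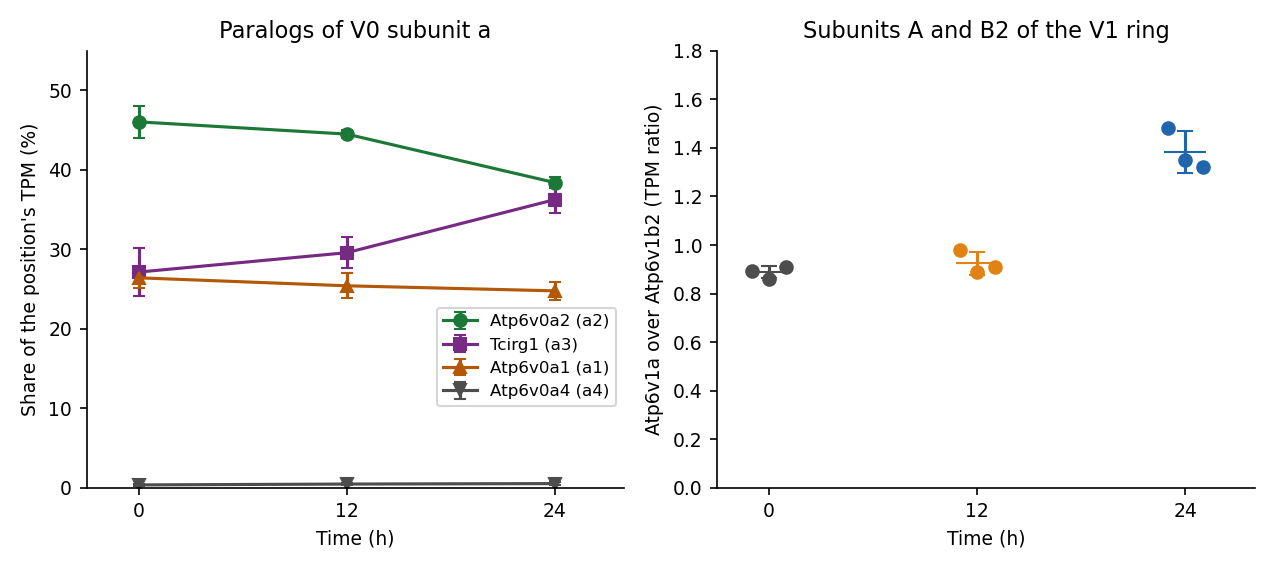
Left, share in percent of the TPM of the V0 a position held by each paralog against time in hours (mean and SD of 3 libraries). Tcirg1 rises from 27.2% to 36.3% and Atp6v0a2 falls from 46.1% to 38.4%. Right, ratio of Atp6v1a to Atp6v1b2 in TPM, with 1 point per library and bars for mean and SD. The 24 hour libraries lie at 1.32 to 1.48, above all others.

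The accessory proteins of the pump went different ways. Atp6ap1, an assembly factor that joins V0, rose at 24 hours (log2 0.24, adjusted p = 0.000145 in edgeR), with a log2 change of 0.015 under library totals. Atp6ap2, the prorenin receptor, fell by 0.18 on the log2 scale (adjusted p = 0.00946 in edgeR), and it was lower under each of the scalings. It did not pass without replicate 3 of time 0 (log2 -0.14, adjusted p = 0.074 in edgeR) or replicate 3 of 24 hours (-0.13, adjusted p = 0.055).

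Among the 14 cathepsins, 7 were tested. At 24 hours Ctsl, Ctsh, Ctsz, Ctsb, Ctsd and Ctsa were higher (adjusted p), none was lower, and Ctso did not pass (log2 0.13, SE 0.11). Of all tested genes 34.4% were higher and 36.5% lower. The median log2 change of the 7 cathepsins was 0.25, or 0.025 with library totals (3 higher, 0 lower). Ctsl, the cysteine endopeptidase cathepsin L, was measured at 333, 331 and 333 CPM at time 0, at 368, 392 and 367 at 12 hours, and at 540, 552 and 557 at 24 hours. The 3 times did not overlap. Its log2 change was 0.18 at 12 hours (SE 0.033, adjusted p = 0.00135 in edgeR's quasi-likelihood test) and 0.73 at 24 hours (SE 0.038, adjusted p = 2.07e-09), or 0.50 with library totals, short of 1.5-fold. From 12 to 24 hours it was 0.57 (SE 0.036), short of the fold threshold, and without replicate 2 of 12 hours it was 0.60 and past it.

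The other tested cathepsins did not pass the adjusted p at 12 hours, and all but Ctso did at 24 hours. Ctsz stood at 210 ± 1.07, 213 ± 5.48 and 268 ± 5.87 CPM at the 3 times (log2 0.35 at 24 hours, SE 0.038), with 0.22 after length and GC offsets and 0.13 under library totals. Ctsb, a cysteine protease, stood at 265 ± 5.03, 265 ± 3.19 and 315 ± 3.26 (log2 0.25, SE 0.038), with 0.42 after length and GC offsets and 0.025 under library totals. Ctsd stood at 517 ± 27.5, 521 ± 10.1 and 606 ± 16.7 (log2 0.23, SE 0.046), with 0.0088 under library totals. Ctsh and Ctsa had log2 changes of 0.44 (SE 0.084) and 0.20 (SE 0.040). With library totals Ctsh was at 0.22 and Ctsa at -0.021, which did not pass, and with length and GC offsets they were at 0.43 and 0.41. At 12 hours Ctsh had a log2 change of 0.19 with an SE of 0.078 (adjusted p = 0.17 in edgeR). The summed CPM of all 14 cathepsins was 1466 ± 37.1 at time 0, 1520 ± 32.9 at 12 hours and 1906 ± 29.8 at 24 hours.

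Exons of some of these genes overlap those of other genes in GENCODE M21 on the same assembly, and whether reads were counted by strand is not stated. Ctsl (chr13:64359337-64370890, minus strand) shares 1742 exon bases with the antisense gene Gm47123 and 395 with the pseudogene Gm49230. Ctsd shares 808 with Gm49369 on its own strand, and Ctsb 774 with Fdft1 on the other strand. Ctsa shares 495 with Pltp and 324 with Neurl2, Atp6v0a2 663 with an antisense gene, Npc1 511 with Rmc1 and Lamp1 249 with Grtp1, all on the other strand. Reads from stretches shared on 1 strand cannot be assigned to 1 gene, and those shared between strands cannot unless counting was by strand.

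The membrane and cholesterol group had a median log2 change of 0.50 at 24 hours over 6 tested genes, or 0.28 with library totals and 0.46 with length and GC offsets. Npc2, the soluble cholesterol carrier of the lumen, was measured at 451, 419 and 412 CPM at time 0 and at 418, 433 and 424 at 12 hours. At 24 hours it was at 725, 698 and 722. The first and second times overlapped, and all 24 hour libraries were higher. Its log2 change at 24 hours was 0.74 (SE 0.045, adjusted p = 7.65e-09 in edgeR's quasi-likelihood test), and 0.52 with library totals, short of 1.5-fold. Npc1, the membrane protein that takes cholesterol from NPC2, was at 90.6, 86.3 and 82.8 CPM at time 0, at 96.2, 101 and 97.2 at 12 hours and at 112, 110 and 112 at 24 hours. These times did not overlap. From 12 to 24 hours Npc1 had a log2 change of 0.20 (adjusted p = 0.000232 in edgeR), which did not pass with library totals (-0.023, adjusted p = 0.58). Against time 0 it had a log2 change of 0.18 at 12 hours (SE 0.038, adjusted p = 0.00374 in edgeR) and 0.36 at 24 hours (SE 0.044, adjusted p = 6.51e-06), with 0.14 under library totals.

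Lamp1 was measured at 420, 428 and 424 CPM at time 0, at 421, 424 and 408 at 12 hours and at 622, 639 and 631 at 24 hours. The first times overlapped, and the 24 hour libraries were all higher. Its change at 24 hours, 1.49-fold (log2 0.57, SE 0.038, adjusted p = 1.87e-08 in edgeR), lay just below the fold threshold, and Lamp1 was called without replicate 2 or replicate 3 of time 0 (log2 0.59 in both) and with RLE or upper-quartile factors. The log2 change of Lamp1 was smaller with length and GC offsets (0.52) and with library totals (0.35), and passed the adjusted p in both. From 12 to 24 hours it was called (log2 0.61, SE 0.033). Lamp2, which also serves chaperone-mediated autophagy, was at 142, 136 and 139 CPM at time 0, at 145, 145 and 142 at 12 hours and at 235, 210 and 223 at 24 hours. Its 24 hour libraries lay above all others. The log2 change of Lamp2 was 0.68 (SE 0.046, adjusted p = 2.57e-08 in edgeR). It was no longer past 1.5-fold with length and GC offsets (0.48) or library totals (0.46).

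Mcoln1 encodes the calcium channel TRPML1, which releases calcium from lysosomes. It was at 18.7, 23.0 and 23.8 CPM at time 0, at 22.7, 20.8 and 20.9 at 12 hours and at 31.7, 27.0 and 29.5 at 24 hours. Only the 24 hour libraries stood apart, with a log2 change of 0.43 (SE 0.088, adjusted p = 0.000709 in edgeR), and with library totals it was 0.20 and did not pass (adjusted p = 0.071). Scarb2, the membrane protein LIMP-2 that carries glucocerebrosidase to lysosomes, went the other way. It was at 65.9 ± 2.87 CPM (SD, n = 3) at time 0, 60.8 ± 1.28 at 12 hours and 50.7 ± 2.91 at 24 hours, without overlap between the times. Its log2 change was -0.11 at 12 hours, which did not pass (SE 0.040, adjusted p = 0.088 in edgeR) but did with library totals (-0.13, adjusted p = 0.0313), and -0.38 at 24 hours (SE 0.054, adjusted p = 2.77e-05). At 24 hours it was -0.60 with library totals and called. No other tested gene of this group was lower at 24 hours, and Scarb2 was lower under each of the scalings.

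**Figure D4:**
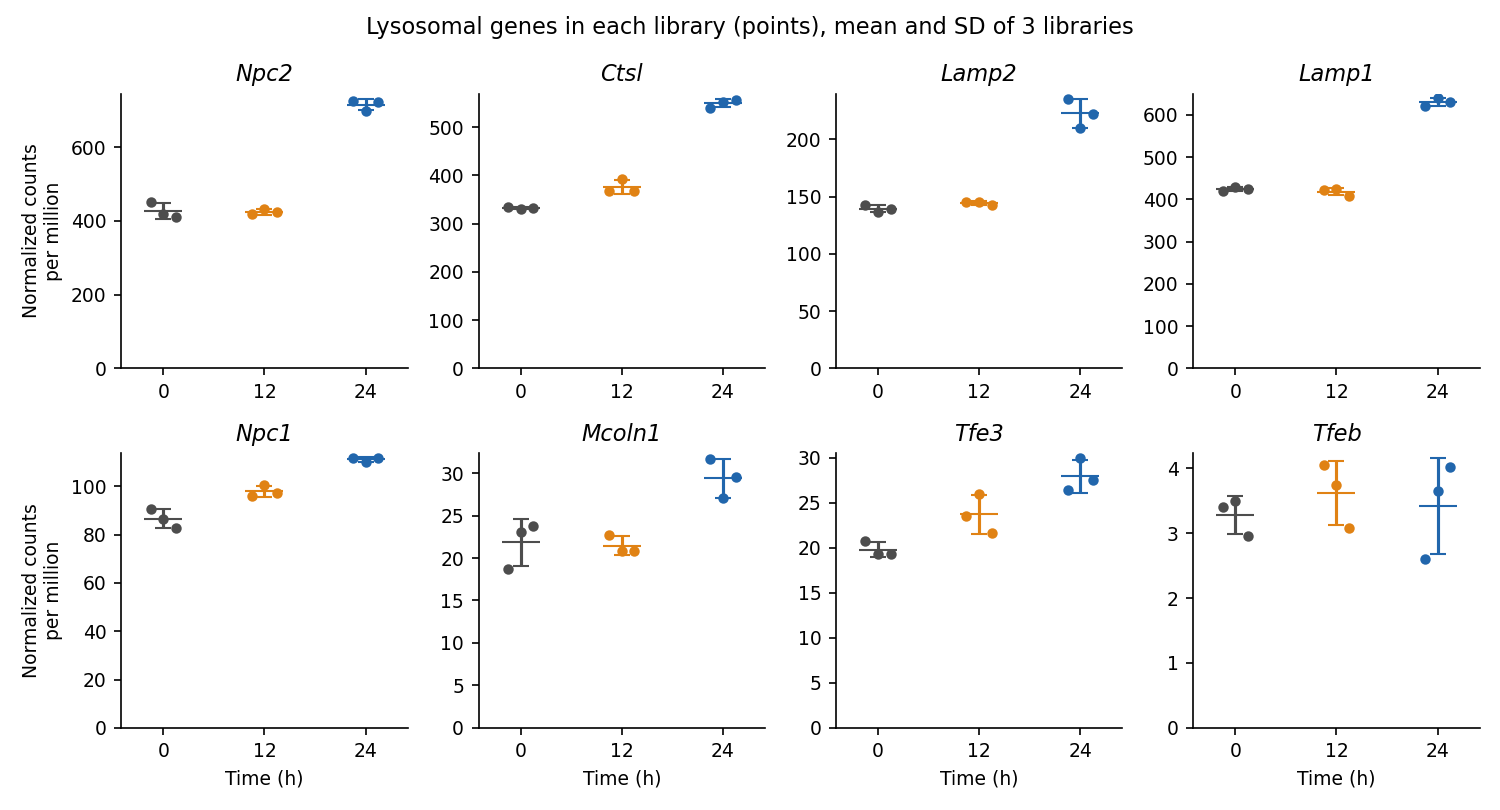
Normalized counts (CPM, TMM scaled over the 9 libraries) against time in hours for 8 genes, with 1 point per library and bars for mean and SD (n = 3). Npc2, Lamp1 and Mcoln1 overlap at time 0 and 12 hours and lie higher at 24 hours, Lamp2 lies slightly higher at 12 hours without passing the test and higher again at 24 hours, Ctsl and Npc1 are higher at both, and the Tfeb libraries overlap at all times.

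The transcription factor genes were expressed at low levels. Tfe3 was measured at 20.8, 19.4 and 19.3 CPM at time 0, at 23.6, 26.0 and 21.6 at 12 hours and at 26.4, 30.0 and 27.5 at 24 hours. Both later times lay above time 0. Its log2 change was 0.26 at 12 hours (SE 0.067, adjusted p = 0.0157 in edgeR's quasi-likelihood test) and 0.50 at 24 hours (SE 0.066, adjusted p = 1.43e-05). At 12 hours it no longer passed without replicate 3 of time 0 (0.24, adjusted p = 0.067), replicate 1 of 12 hours (0.27, adjusted p = 0.055) or replicate 2 of 12 hours (0.19, adjusted p = 0.14). The size depends on the correction: with length and GC offsets Tfe3 was called at 24 hours (log2 0.91), and with library totals the value was 0.28. From 12 to 24 hours the log2 change of Tfe3 was 0.26, or 0.65 and called with the offsets, and it did not pass with library totals (0.034). Tfeb was at 3.40, 3.49 and 2.95 CPM at time 0, at 4.05, 3.74 and 3.09 at 12 hours and at 2.60, 3.65 and 4.02 at 24 hours. The 3 times overlapped, and its log2 changes of 0.15 (SE 0.14) and 0.069 (SE 0.17) did not pass. With 106 to 190 counts per library, a change of Tfeb of this size was not detectable.

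Over all 46 genes, the summed level was 3735 ± 65.4 CPM at time 0 (SD, n = 3), 3793 ± 53.7 at 12 hours and 4903 ± 28.1 at 24 hours. As a share of all counts of a library, without TMM factors, it was 0.393% to 0.395%, 0.392% to 0.400% and 0.442% to 0.447%. The 24 hour libraries lay above the others on both scales. Abundant genes weigh most in such a sum, among them Ctsd, Npc2, Lamp1 and Ctsl. By sector the 2 scales differed. The V1 genes summed to 561 ± 9.68 CPM at time 0 and 633 ± 11.5 at 24 hours, but to 0.0589% to 0.0599% and 0.0566% to 0.0578% of counts. For the V0 genes these were 321 ± 2.16 and 355 ± 6.81 CPM, but 0.0331% to 0.0343% and 0.0314% to 0.0330% of counts. The accessory genes had 198 ± 2.65 and 218 ± 4.84 CPM, but 0.0204% to 0.0215% and 0.0191% to 0.0202% of counts. The membrane and cholesterol genes were higher at 24 hours on both, with 1165 ± 23.9 and 1760 ± 24.5 CPM, and 0.122% to 0.124% and 0.158% to 0.162% of counts.

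Other genes of lysosomes were read from lists beside the 46. Their counts at 24 hours stand against the 12.0% of all tested genes called higher and 16.8% called lower. Of 41 tested hydrolases and their cofactors, 2 were called higher and 1 lower, 7.32% in all and less than the 28.8% of all genes, with a median log2 change of 0.15 (-0.072 with library totals). With length and GC offsets 1 was called higher and 0 lower (median 0.18). Past the adjusted p alone were 20 higher and 9 lower, where 34.4% of all tested genes were higher and 36.5% lower. With library totals 7 hydrolases were higher and 15 lower. Scpep1, a carboxypeptidase, had a log2 change of 0.66 (SE 0.037) and Ggh, which trims folate, of 0.72 (SE 0.071), while Sgsh, a heparan sulfate sulfatase, fell by 0.74 (SE 0.097). Other lysosomal membrane proteins numbered 27 tested, of which 0 were called higher and 5 lower (18.5%, against 16.8% of all genes called lower), or 2 higher and 4 lower with length and GC offsets, with a median log2 change of -0.14 (-0.074 with the offsets). The lowest were Slc36a1, an amino acid transporter (log2 -1.38, SE 0.071), and Sidt2 (log2 -1.15, SE 0.046).

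Of 13 tested genes in the list of Tcirg1 with the V-ATPase assembly factors and regulators, 2 were called higher and 1 lower (median log2 change 0.11). Those called were Tcirg1 and Ncoa7, whose product binds the pump (log2 0.68, SE 0.076), and Meak7 (-0.97, SE 0.086). Of 23 tested genes of the TFEB family and its upstream regulators, 0 were called higher and 3 lower (13.0%, against 16.8% of all genes called lower; median -0.090), among them Fnip2, a partner of folliculin (-1.10, SE 0.059), and Mtor, the kinase of mTORC1 (-0.86, SE 0.061). Of 13 genes that sort lysosomal enzymes, 1 was called higher and 4 lower (median -0.28, or 0.017 with length and GC offsets, where 0 were called higher and 1 lower). Vps35, of the retromer, had a log2 change of 0.63 (SE 0.039). Gnptab, which starts the mannose 6-phosphate tag, and the sorting receptor gene Sort1 had -1.02 (SE 0.057) and -0.81 (SE 0.044).

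Of the cystatins and other inhibitors of cathepsins, 3 were tested and 2 were called higher, Cst3 (log2 0.63, SE 0.043) and Cst6 (1.16, SE 0.19), while only 1 was called with library totals or with length and GC offsets. Cst3, cystatin C, went from 329 ± 12.6 to 509 ± 15.8 CPM and Cst6 from 1.24 ± 0.234 to 2.76 ± 0.221. Of 34 autophagy genes, 5 were called higher and 5 lower (29.4% in all, near the 28.8% of all genes; median -0.13). Map1lc3a (0.87, SE 0.051) and Uvrag (0.70, SE 0.042) were the highest, and Plekhm1 (-1.31, SE 0.060) and Pik3r4 (-1.30, SE 0.078), a partner of Vps34, the lowest. All of the listed genes named here passed edgeR's quasi-likelihood test with an adjusted p of at most 0.000109. At 12 hours no gene of these lists was called. With library totals, where 6.10% of all genes were called higher and 26.3% lower at 24 hours, 0 higher and 8 lower were called among the other membrane proteins, 0 and 10 among the TFEB family and its regulators and 1 and 8 among the autophagy genes. No gene of the hydrolases, of the list with Tcirg1 or of the sorting genes was then called higher (3, 2 and 6 lower). The median of the list with Tcirg1 was -0.11 with library totals and -0.029 with length and GC offsets.

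**Figure D5:**
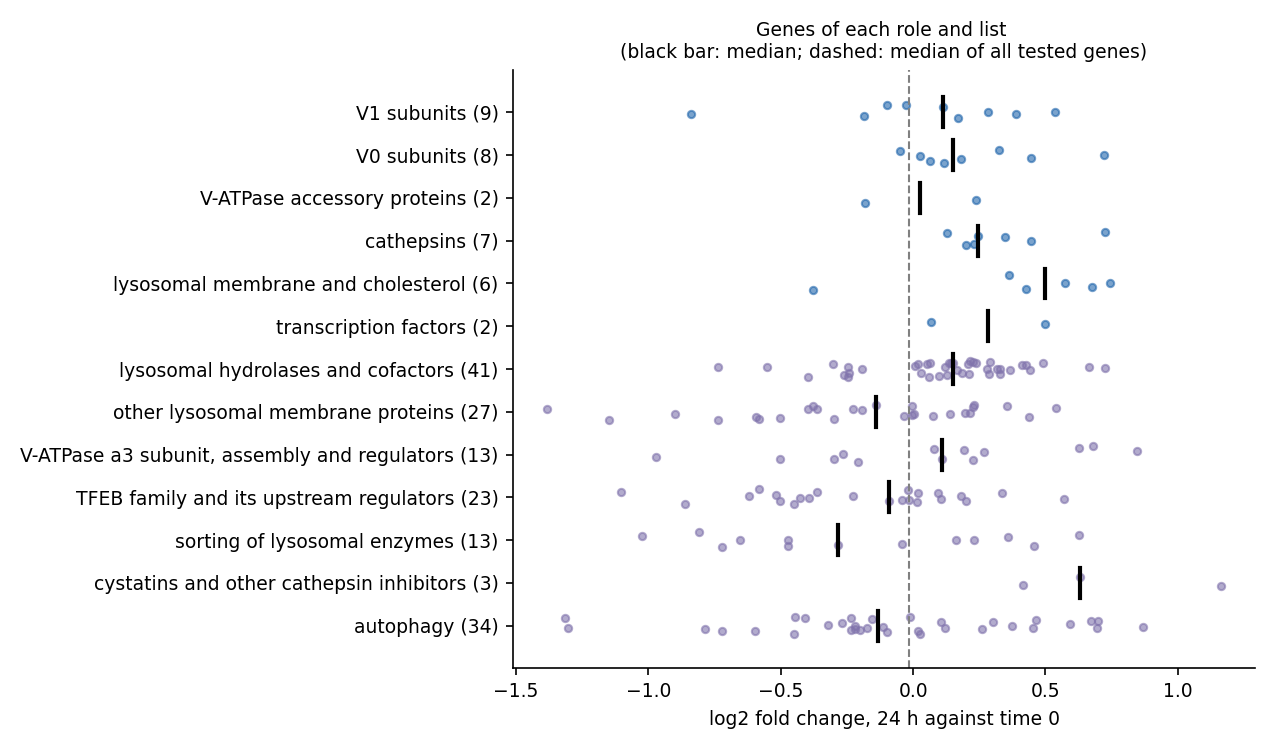
log2 fold change at 24 hours against time 0 (x axis) for each tested gene, by role for the 46 genes (blue) and by list for the other genes of lysosomes and autophagy (purple), with the number tested in brackets. Black bars are medians and the dashed line is the median of all tested genes. The membrane and cholesterol genes have a median of 0.50 and the other lysosomal membrane proteins one of -0.14.

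Genes with an E-box in the promoter window were set beside those without one. Of the 9 tested genes with an E-box, 8 were higher at 24 hours (adjusted p), 0 were lower and the median log2 change was 0.43 (range 0.024 to 0.73), where 34.4% of all tested genes were higher and 36.5% lower. Of the 17 tested genes with a window but no E-box, 7 were higher and 3 lower, with a median of 0.13 (range -0.84 to 0.74). With library totals 4 of the 9 with an E-box were higher and Atp6v0e was lower (median 0.20), and of the 17 without one 5 were higher and 5 lower (median -0.095). For the whole CLEAR core the medians were in the other order, at 0.22 over 6 tested genes with it and 0.28 over 20 without, and at -0.0064 and 0.059 with library totals (1 higher and 1 lower with it, 8 and 5 without), but with length and GC offsets they were 0.32 and 0.19. Atp6v0e, whose core lies within its transcribed bases, did not pass the adjusted p. Npc2, which had the largest change among genes past the adjusted p, and Lamp2 had no E-box in their windows. No test was made of these differences, and the genes without a window (Npc1, Ctsb and Ctsh among them) are in neither group.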

How the data were processed

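RNA-Seq counts of 9 MyC-CaP libraries were used, 3 each at time 0, 12 and 24 hours, grouped by the sample labels. The authors made TruSeq mRNA libraries, sequenced paired-end 150 bp reads, aligned them to GRCm38.p6 with STAR and counted reads per gene with featureCounts. The deposited values are raw counts without normalization. How the genes of the table were chosen is not given in the sources used here.

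Libraries were scaled and tested in R 4.3.3 with edgeR 4.0.16 (filterByExpr, TMM factors, quasi-likelihood test, Benjamini-Hochberg adjustment over all tested genes), separately for 3 comparisons of 6 libraries. The calls are those of the study's thresholds (adjusted p of 0.05 and 1.5-fold). Each SE of a log2 change was derived from the test, as the absolute log2 change divided by the square root of its F statistic. Replicates of each time differed by more than sampling noise in all 9 pairs (chi-square per degree of freedom of 3.48 to 18.2). The p-values test differences between times against the variation among these replicates, estimated with use of all tested genes. TPM used exon lengths of GENCODE M21, in which 15374 of the 15384 genes were found. CPM were TMM scaled over the 9 libraries. Scaling by total counts ignores that a few genes may take a larger share of a library, and TMM assumes that most genes do not move together.

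The genes and lists were chosen with earlier results of these data known. Values per library are given for genes called in any comparison and for Tfeb, Tfe3, Lamp1, Mcoln1 and Npc1, means for up to 10 others, and up to 2 called genes at either end of each list (mean count of 50 or more). Promoters are RefSeq sequences, shown for at most 4 genes with the longest match, none on chromosome 18. Alternatives were DESeq2 1.42.0, limma-voom (limma 3.58.1), other factors and filters, a replicate block, offsets for length and GC content (loess span 0.3), glmTreat and leaving out each library. The fit was tested on simulated data. The luminal marker sums cover the 6 genes reported, and other genes of the list first drawn up are not reported here.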

Additional observations from a re-analysis of the deposited data

Results flagged for a closer look

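The change from time 0 differed between 12 and 24 hours for Npc2, Lamp2 and Lamp1, by the test of that difference itself, which is the comparison of 24 with 12 hours in edgeR's quasi-likelihood test. The change at 24 hours exceeded that at 12 hours by 0.77 on the log2 scale for Npc2 (SE 0.034, adjusted p = 4.66e-10 in edgeR), by 0.64 for Lamp2 (SE 0.043, adjusted p = 1.95e-08) and by 0.61 for Lamp1 (SE 0.033, adjusted p = 2.55e-09). In all 3 genes each library of 24 hours was above each of 12 hours. With library totals the differences were 0.55, 0.42 and 0.39, below 1.5-fold in each case, and Lamp2 and Lamp1 were also below it with length and GC offsets (0.43 and 0.53). Whether ASPN or the further hours in culture went with these differences cannot be told apart.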

How the results depend on the processing

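The number of genes called was 3 at 24 hours against time 0 and was 1 with total-count scaling (Scarb2, lower), and 3 at 24 against 12 hours, where it was 0 with total-count scaling and 1 with glmTreat. With length and GC offsets Tfe3 replaced Lamp2 among those called at 24 hours against time 0, and Ctsl and Tfe3 replaced Lamp1 and Lamp2 against 12 hours. At 12 hours against time 0, leaving out 1 library gave 0 to 1 called and 2 to 5 past the adjusted p alone, against 3. The highest values came without replicate 1 of time 0, where the called gene was Atp6v1g2. Leaving out 1 library otherwise gave 3 to 4 called at 24 hours in both comparisons, and 22 to 24 (time 0) and 22 to 26 (12 hours) past the adjusted p alone. Against time 0 the added gene was Atp6v1g2 without replicate 1 of time 0, and Lamp1 without replicate 2 or replicate 3 of it. For values near 0 the sign changed: Npc2 at 12 hours was 0.0067 with length and GC offsets, 0.0078 with the replicate block and these offsets, and -0.031 to 0.038 without 1 library. Mcoln1 at 12 hours was -0.12 to 0.046 without 1 library. Tfeb at 24 hours was -0.15 with total-count scaling and -0.060 to 0.23 without 1 library, and against 12 hours 0.056 with offsets, 0.052 with block and offsets, and -0.19 to 0.096 without 1 library. Signs also changed for genes past the adjusted p. Npc1 at 24 against 12 hours was 0.20, and -0.023 with total-count scaling. In that comparison Atp6v0a1, Atp6v0d1, Atp6v0e2 and Atp6v1c1 changed sign too with total-count scaling. At 24 hours against time 0, Atp6v0d1, Atp6v1c1 and Ctsa did. Same-numbered libraries correlated at -0.11 to 0.057 after the mean of each time was removed, so the numbers were not taken as pairs. With the replicate block 0, 3 and 3 genes were called in the 3 comparisons and 3, 23 and 23 passed the adjusted p. The median TPM of the tested genes at time 0 was 51.3 and was 55.8 with the longest transcript. The share of Atp6v0a2 was 46.1% at time 0 (41.0% with the longest transcript, 50.8% of counts) and 38.4% at 24 hours (33.8% and 43.7%), and that of Atp6v0e 56.4% and 55.7% (66.8% and 66.2% of counts). The cause of these differences was not tested. Depth limits the 12 genes with at most 13 counts per library, and Atp6v1g2, Atp6v0a4 and Tfeb.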
